A study of Mus musculus with 14 samples.

Results

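RCOR2 is a corepressor of the CoREST family, which binds the histone demethylase LSD1 and histone deacetylases and is brought to DNA by partner transcription factors. In embryonic stem cells (ESCs) much of the DNA that controls developmental genes lies far from them, in gene-poor stretches that hold enhancers, long noncoding RNA (lncRNA) genes and repeated small RNA genes. The regions described here are RCOR2 binding peaks of mouse ESCs that were under 1000 bp wide and whose summit lay outside every protein-coding gene of the RefSeq annotation and 50 kb or more from every protein-coding gene end. By this rule 7902 of the 53216 RCOR2 peaks on chromosomes 1 to 19 and X were far narrow peaks, a share of 14.85% (95% Wilson interval 14.55% to 15.15%, counting error only). Width, position and peak call chose them, so their widths, folds and densities are descriptions without a test.

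The cells were mouse ESCs of the C57BL/6 strain background fed serum, leukemia inhibitory factor (LIF) and inhibitors of MEK and GSK3. For the chromatin immunoprecipitation (ChIP), 2 samples expressing HA-tagged RCOR2 and 2 negative controls, 1 of WT cells and 1 of cells expressing mCherry, went through the same anti-HA resin, so the peaks record the tagged, added protein and not the endogenous one. The authors' peak list was called on merged libraries and gives 1 fold enrichment over control and 1 −log10 q per peak, so no peak has a replicate value. RNA-seq counts came from 2 Rcor2 knockout (KO) and 2 wild-type (WT) libraries of the same strain background, with 1974865 and 2951498 counts in KO and 1286393 and 2368804 in WT. The labels do not state how many KO clones these came from or which part of Rcor2 was deleted. The targeted gene itself was read at 54.2 and 53.9 counts per 1000000 (CPM, scaled by TMM) in KO and at 81.4 and 81.5 in WT. Its difference was −0.59 ± 0.23 (SE) on the log2 scale and missed the threshold (edgeR quasi-likelihood test, Benjamini-Hochberg adjusted p = 0.0636). Both KO libraries lay below both WT libraries, yet the gene was still read in KO, so the counts alone do not show its loss. The summed CPM of 10 ESC markers ran from 4173 to 4378 in WT and from 4806 to 4870 in KO, with no marker at 0. The summed CPM of 8 fibroblast markers ran from 40.0 to 53.3 in WT and 42.4 to 43.4 in KO, that of 8 primitive endoderm markers from 2.11 to 5.33 and 3.66 to 7.59, and that of 8 neural markers from 20.6 to 28.7 and 10.3 to 20.4. Their part in the results below was not tested.

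A reference window from 250 bases before to 50 after an annotated gene start holds the summit of 38 of the 7902 peaks, 0.481%, and these are the far narrow peaks whose sequence can be read here. They lie at the starts of 38 lncRNA genes. The windows printed are those of D230030E09Rik, whose peak has the highest fold of the 38, of the pluripotency-associated transcripts Platr22 and Platr26, and of C330004P14Rik, an lncRNA start 1020204 bp from the nearest protein-coding gene, Nmbr. Each is 300 bases of RefSeq GRCm38.p6, 5′ to 3′ on the strand of the gene, and capitals mark 15 bases on each side of the RCOR2 summit.
D230030E09Rik: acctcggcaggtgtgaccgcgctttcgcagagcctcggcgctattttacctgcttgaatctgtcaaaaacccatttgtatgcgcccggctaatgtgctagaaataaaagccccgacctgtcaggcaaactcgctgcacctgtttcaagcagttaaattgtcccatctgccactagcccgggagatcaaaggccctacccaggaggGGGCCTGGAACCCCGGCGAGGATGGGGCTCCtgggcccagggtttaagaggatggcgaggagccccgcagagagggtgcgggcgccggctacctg
Platr22: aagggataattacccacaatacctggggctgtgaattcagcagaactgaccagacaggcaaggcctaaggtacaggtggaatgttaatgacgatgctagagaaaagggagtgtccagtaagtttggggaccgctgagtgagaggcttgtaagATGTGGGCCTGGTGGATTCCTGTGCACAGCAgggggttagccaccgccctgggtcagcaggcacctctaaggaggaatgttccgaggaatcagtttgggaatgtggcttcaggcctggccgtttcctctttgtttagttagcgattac
Platr26: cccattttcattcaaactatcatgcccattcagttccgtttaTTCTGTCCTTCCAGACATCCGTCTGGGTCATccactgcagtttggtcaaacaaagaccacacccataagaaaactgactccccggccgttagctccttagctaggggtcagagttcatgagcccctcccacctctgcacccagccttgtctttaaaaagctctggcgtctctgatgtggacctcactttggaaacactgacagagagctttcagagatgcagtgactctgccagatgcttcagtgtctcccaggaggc
C330004P14Rik: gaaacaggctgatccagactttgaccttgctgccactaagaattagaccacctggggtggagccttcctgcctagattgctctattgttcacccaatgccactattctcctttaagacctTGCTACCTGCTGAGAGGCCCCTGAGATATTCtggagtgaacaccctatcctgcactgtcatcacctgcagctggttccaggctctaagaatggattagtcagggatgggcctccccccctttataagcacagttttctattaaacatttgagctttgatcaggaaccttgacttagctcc

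The D230030E09Rik window is chr12:118530144-118530443 on the minus strand, and its peak, chr12:118530009-118530544, had a fold of 9.64 and a −log10 q of 22.6. The Platr22 window, chr1:136695961-136696260 on the plus strand, holds the summit of a 6.61-fold peak that lies 65737 bp from Zfp281, a zinc finger gene. The Platr26 window, chr2:71719167-71719466 on the plus strand, holds that of a 4.38-fold peak 67662 bp from the integrin gene Itga6. The C330004P14Rik window, chr10:15791527-15791826 on the plus strand, holds that of a 5.30-fold peak.

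The lncRNA starts under far narrow peaks were richer in CpG than other lncRNA starts in the same territory. Of their 41 windows (3 genes gave 2 overlapping ones), 41.5% held 10 or more CpG dinucleotides. So did 5.50% of 3274 windows that lie as far from protein-coding genes and overlap no RCOR2 peak, and 43.7% of all 32585 windows. Their median GC content was 52.3%, against 45.3% in the windows without a peak and 53.0% in all windows. The GC box, GGGCGG, searched on both strands, stood in 34.1% of the windows under a peak, 6.08% of those without and 35.9% of all. The E box CAGGTG, the hexamer bound by SNAIL and ZEB repressors, stood in 34.1%, 18.0% and 20.3%. By gene, 13 of 38 held a GC box and 13 an E box. A GC box and an E box can share an end base, GC content moves with the GC box, and a match is a description of letters and not a binding site. D230030E09Rik held 2 E boxes and no GC box, Platr22 held 1 of each, C330004P14Rik held 2 E boxes and Platr26 held neither. The left part of the REST element, TTCAGCACC, stood in 4.88% of the windows under a peak, but these were the 2 overlapping windows of 1 gene, Gm42298. It stood in 0.374% of all windows.

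Far narrow peaks were sparse for the length of far territory. No density here was corrected for assembly gaps or for DNA to which reads cannot be placed. Far territory, counted from the first to the last peak of each chromosome, covered 913.9 Mb or 35.6% of the span, and held 8.65 peaks per Mb. Narrow peaks within 1 kb of a protein-coding gene end reached 149 per Mb, those deeper inside genes 16.6 per Mb, and those outside genes but under 50 kb from an end 25.8 per Mb. Density fell with distance up to 1000 kb. It was 13.6 per Mb between 50 and 100 kb, 9.30 between 100 and 200 kb, 6.83 between 200 and 500 kb and 5.49 between 500 and 1000 kb, and stood at 6.08 beyond that, where 412 peaks lay. The counting intervals of neighbouring distance classes overlapped only in that last step, from 500 kb on. These intervals treat each peak as independent, and many peaks stand in clusters, so they are too narrow to separate classes. The median distance was 147445.5 bp. The most distant peak, chr14:90689563-90689927, lay 2218259 bp from the protocadherin gene Pcdh20.

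**Figure D1:**
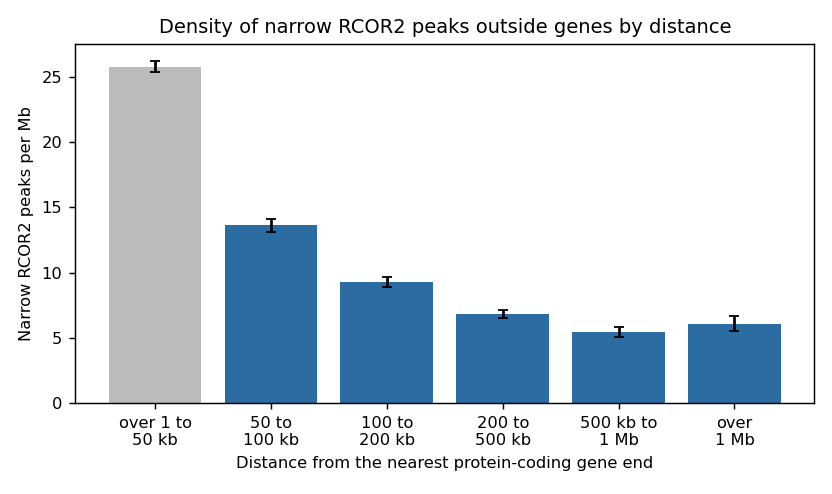
Narrow RCOR2 peaks per Mb (y axis) against distance from the nearest protein-coding gene end (x axis). The grey bar is narrow peaks outside genes but under 50 kb from an end, and blue bars are far narrow peaks. Lines are exact 95% Poisson intervals, which treat peaks as independent. Bars fall from 25.8 to 5.49 per Mb and stand at 6.08 beyond 1000 kb.

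The fold and significance of far narrow peaks resembled those of the other narrow peaks in the same list. The median fold enrichment was 4.38, with quartiles of 3.92 and 5.30, a lowest value of 1.37 and a highest of 36.0. Narrow peaks elsewhere also had a median of 4.38. The median −log10 q was 5.16 against 4.46 elsewhere, and 12.7% of far narrow peaks reached 10, against 12.5%. The median width was 248 bp against 253 bp. Many peaks were close to the smallest the caller reports: 2784 were under 200 bp wide, and 3593 of the 7902 (45.5%) shared 8 fold values that lie 0.2288 apart, from 3.69 to 5.30. These values step evenly, so small differences of fold between such peaks cannot be ranked. Just past the distance limit, the 428 narrow peaks from 50 to under 55 kb had a median fold of 4.42, and just short of it the 510 from 45 to under 50 kb had 4.38. Just under the width limit, 131 far peaks within 100 bp of it had a median fold of 6.44, and 86 far peaks up to 100 bp past it had 6.48.

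The strongest far narrow peaks stood mostly alone. The highest −log10 q, 174.6, belonged to chr12:42972625-42973519, enriched 36.0-fold inside the lncRNA gene Gm33340 and 1017356 bp from Immp2l, which encodes a mitochondrial inner membrane peptidase. The next was chr2:39806635-39807623, 33.9-fold and 580566 bp from Ppp6c, a catalytic subunit of protein phosphatase 6. The third was chr9:4138682-4139541, 32.3-fold inside the lncRNA gene Gm45957 and 155757 bp from Aasdhppt, which attaches the pantetheine group to carrier proteins. The other peaks of the leading 10 were 26.5- to 30.9-fold enriched and nearest to Slc16a7 (a monocarboxylate transporter), Nphp4 (a ciliary protein), Zmat4, Kcnj6 (a potassium channel of neurons), Rbfox1 (a neuronal splicing factor), Atoh1 (a proneural transcription factor) and Gm6569. Of these 10 peaks, 4 had 1 other far narrow peak within 10 kb and none was in a cluster of 3.

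On autosomes far territory held 7.17 to 10.7 peaks per Mb, and between 0.257 and 0.442 times the density of narrow peaks in the rest of the same chromosome. Chromosome X differed in both: it had 5.20 far narrow peaks per Mb, the lowest, but only 4.59 narrow peaks per Mb elsewhere, where autosomes had 21.4 to 38.3, so that its ratio was 1.13. Chromosome 13 had the highest far density, 10.7 per Mb, and chromosome 3 the most peaks, 700.

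**Figure D2:**
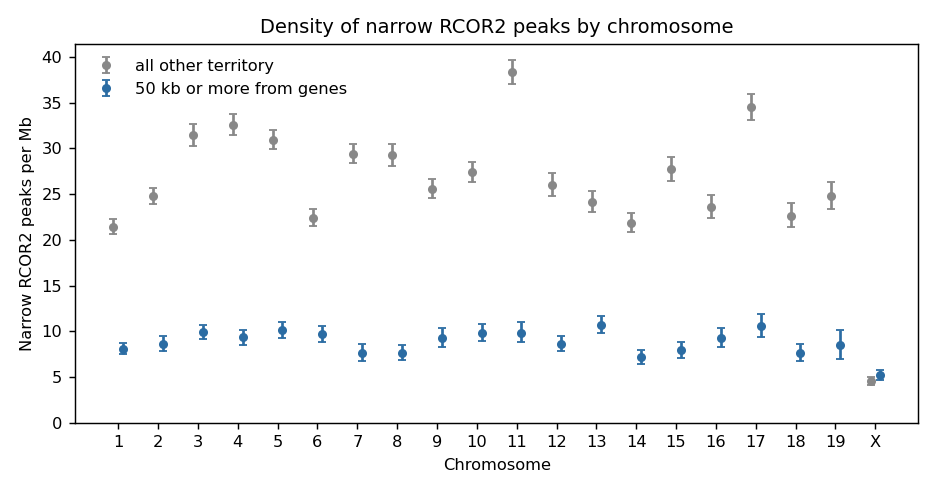
Narrow RCOR2 peaks per Mb (y axis) on each chromosome (x axis), in far territory (blue) and in all other territory (grey). Lines are exact 95% Poisson intervals, which treat peaks as independent. Far density stays between 5.20 and 10.7 per Mb, and on chromosome X the grey point falls to 4.59, near the blue one.

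Far narrow peaks stood alone more often than in clusters. With summits linked at up to 10 kb and at least 3 peaks per cluster, 424 clusters held 1814 peaks, or 22.96%, while 1948 peaks stood in pairs and 4140 (52.4%) alone. Of the clusters, 233 had 3 peaks, 126 had 4 or 5, 44 had 6 to 9 and 21 had 10 or more. Clustered peaks were not the stronger ones: their median fold was 4.23 against 4.61 for peaks alone, and 11.5% against 14.9% reached a −log10 q of 10. The clustered share fell from 35.1% at 50 to 100 kb from a gene to 11.2% beyond 1000 kb. By chromosome it ran from 15.2% to 37.3%, the highest on chromosome 3, which held 44 clusters and 9 of the 21 with 10 or more peaks. Peaks of chromosome 3 were unevenly spread, and not only the far ones. Narrow peaks in the rest of chr3:120000001-125000000, which holds the largest cluster, reached 128 per Mb, and far narrow peaks 25.9. In chr3:145000001-150000000 these values were 2.23 and 2.90.

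**Figure D3:**
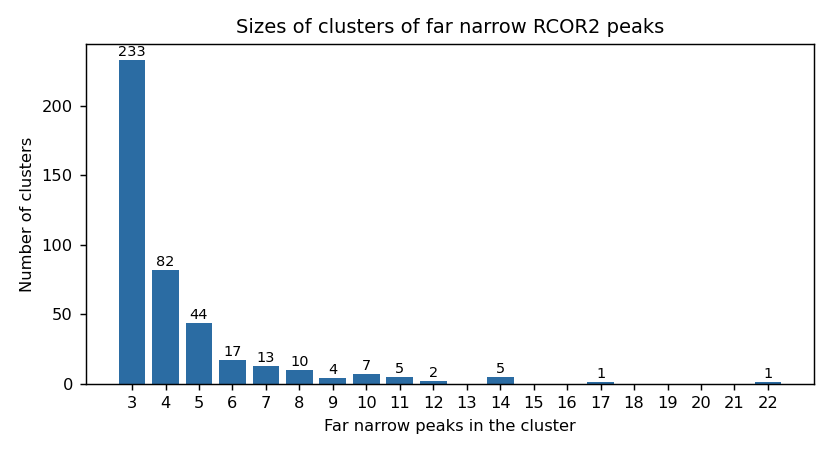
Number of clusters (y axis, with the count above each bar) by the number of far narrow peaks in a cluster (x axis). Clusters of 3 are the most frequent, 233 of 424, and single clusters reach 17 and 22 peaks.

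The largest cluster, chr3:121582146-121621162, held 22 peaks with a median fold of 3.56 and began 50009 bp from Slc44a3, a choline transporter-like gene. It borders the 50 kb limit, with 3 wide RCOR2 peaks within it and 9 peaks outside the rule within 10 kb. The next, chr8:123586878-123603583, held 17 peaks with a median fold of 5.51 over 10 genes of 5S ribosomal RNA and 1 pseudogene. It is nearest to Gas8, which encodes part of the axonemal dynein regulatory complex. This cluster too borders the 50 kb limit, at 50342 bp from Gas8. Within it lay 3 wide RCOR2 peaks, and 20 peaks outside the rule lay within 10 kb. The 5S genes are near-identical copies, and the labels do not state how shared reads were placed. A cluster of 14 peaks, chr3:96346167-96383070, covered 3 transfer RNA genes, the U1 spliceosomal RNA genes Rnu1b1 and Rnu1b2 and the lncRNA Platr30. Another 14 peaks lay within 9718 bp at chr3:6297824-6307541, 307976 bp from 1700008P02Rik and with no annotated gene. Clusters of 14 were nearest to Lrig2, a regulator of growth factor receptors, Tmem17, a ciliary gene, and Scaf8. Those of 11 or 12 peaks were nearest to Tspan5, a tetraspanin, Med13l, a Mediator subunit, Rpl34, Lef1, Slc16a1, a lactate transporter, Vmn1r2 and Gm40862. The clusters nearest to Scaf8, chr17:3006757-3035162, and Vmn1r2, chr4:3065667-3084456, lie at the start of their chromosomes, and their median folds of 2.53 and 2.28 were the lowest of these 14 clusters.

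Counted by the stretch between neighbouring protein-coding genes, 1700 of 2768 far stretches held a peak. The fullest was the one between Rpl34, a ribosomal protein gene, and Lef1, a transcription factor of WNT signalling: 41 peaks in 0.280 Mb, including 2 clusters of 11. RCOR2 had a 14.7-fold peak at chr6:70237150-70237608 inside Igk, the annotated interval of the immunoglobulin kappa locus. Among the 233 stretches of 1 Mb or more, density ran from 0 to 23.9 peaks per Mb with a median of 5.75. The stretch between Sox2 and Atp11b was among the densest, with 18 peaks at 18.0 per Mb, while those between Slco6d1 and Cntnap5b, 4930519L02Rik and Lmo4, Klhl1 and Dach1, and Rorb and Anxa1 held none.

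Of all far narrow peaks, 1449 (18.3%) lay inside or within 1 kb of a RefSeq gene that is not protein-coding, and such genes with their 1 kb margins covered 14.6% of far territory. A peak inside several was given to the shortest. Most were lncRNA genes (1129 peaks) and pseudogenes (155, and 50 annotated as transcribed). The annotation's class of other genes, which holds antigen receptor loci such as Igk (39 peaks) and Tcra (15), had 74. Ribosomal RNA genes had 17, miscellaneous RNA 11, transfer RNA 6, small nuclear RNA 5 and microRNA genes 2. Among the lncRNA genes was Mir670hg, a microRNA host gene, with an 18.8-fold peak at chr2:94245278-94246089. None of the 17 peaks of the TALE pull-downs, which target the Nanog promoter, overlapped a far narrow peak or lay within 1 kb of one. Only 2 of the 17 lay in far territory, and the closest was 25508 bp from a far narrow peak.

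The far narrow peaks had 2278 different nearest protein-coding genes, 10.5% of the 21631 annotated, of which 147 were nearest to 10 or more peaks. The 2 genes nearest to the most, 28 each, were the adhesion genes Cdh9 and Pcdh7, and both were read at 0 counts in all 4 libraries. Ncam2, a neural adhesion gene with 23 peaks, and the odorant receptor gene Olfr161 with 25 were at 0 counts as well. Zfp980, nearest to 24, was read at 10.7 and 12.6 CPM in KO and 14.7 and 13.0 in WT. Of 2166 nearest genes in the count table, 43.7% passed the expression filter and 25.6% were at 0 in all libraries, beside 48.0% and 26.3% of 20703 protein-coding genes. Their median CPM in WT was 2.14, beside 3.13, and 31.6, beside 30.4, among the genes that passed. These differences were not tested.

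Neuronal adhesion genes and developmental transcription factors were often the nearest. Of 72 neuronal adhesion and synapse genes, 59 were nearest to at least 1 far narrow peak and to 462 in all, against 10.5% of protein-coding genes. This list and the next were drawn up with gene-poor flanks in mind, so the counts describe where the genes lie. Over all 10241 genes tested in the RNA-seq, 19.7% were called at an adjusted p under 0.05 by edgeR, 10.4% higher and 9.3% lower in KO. Only 4 of the 72 could be tested and 1 fell. Those with the most peaks after Cdh9 and Pcdh7 were Grik2 with 19, a glutamate receptor gene, Cdh2, the N-cadherin gene, with 18 and Cntn5 with 18. Of 77 developmental transcription factors, 54 were nearest, to 172 peaks. Pou3f2 led with 12, 1 of them 7.13-fold enriched at 53690 bp, then Pou3f1 and Tbx18 with 9 each. Meis1 had 6. Of the 77, 19 were tested, 3 rose and 4 fell. Of the 4 named, Pou3f1 alone passed the filter, at 8.63 and 19.9 CPM in KO and 24.0 and 12.2 in WT, and its difference of −0.43 ± 0.46 had an adjusted p of 0.584 in edgeR. Of 20 members and partners of the CoREST and LSD1 complex, 2 were nearest: Zfp217, a zinc finger partner of the complex, to 7 peaks and the deacetylase gene Hdac2 to 2. Of the 17 tested of that list, 1 fell and none rose, and neither Zfp217 (−0.05) nor Hdac2 (−0.51) was called, though Hdac2 was without WT replicate 1 (−0.70).

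Among 25 ESC factors, 11 were nearest to 67 far narrow peaks, 19 of them in clusters. Sox2, a core pluripotency factor, had 14, of which 13 lay downstream of the gene. A group of 6 of these, at 92771 to 112095 bp, formed a cluster, chr3:34745162-34764898, with 2 wide RCOR2 peaks within it. Its folds ran from 3.47 to 6.44, the highest at chr3:34754760-34755307, 102524 bp away. Tbx3, a factor of naive pluripotency, had 15, of which 7 formed the cluster chr5:119571635-119585728 over the lncRNA gene AW549542, with a median fold of 6.67. The peak of that cluster nearest the gene, chr5:119584850-119585728 at 85060 bp, was 9.19-fold enriched, and 3 further peaks over the antisense gene Tbx3os1 formed a second cluster at 56020 to 59875 bp. Nr5a2, a nuclear receptor gene, had 11, with folds of 3.47 to 6.90, and 9 of them lay upstream. Mycn, of the MYC family, had 7, all downstream, with folds of 3.01 to 6.17. Tcl1, which encodes a coactivator of AKT kinase, had 5, all upstream, and 1 of them, chr12:105322073-105322687 at 99717 bp, was 22.5-fold enriched while the other 4 ran from 2.52 to 6.21. The Tcl1 peak at 113984 bp lies at the lncRNA gene Tunar. Klf4, a core reprogramming factor, had 4 between 51279 and 402157 bp with folds of 3.54 to 6.83. Tet2, which oxidises methylated cytosine, had 4 with folds of 2.65 to 4.42. The krüppel-like factor gene Klf5, the zinc finger gene Sall4 and Tfcp2l1, a factor of naive pluripotency, had 2 each, and Prdm14, a repressor of differentiation in ESCs, had 1, at 6.67-fold.

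**Figure D4:**
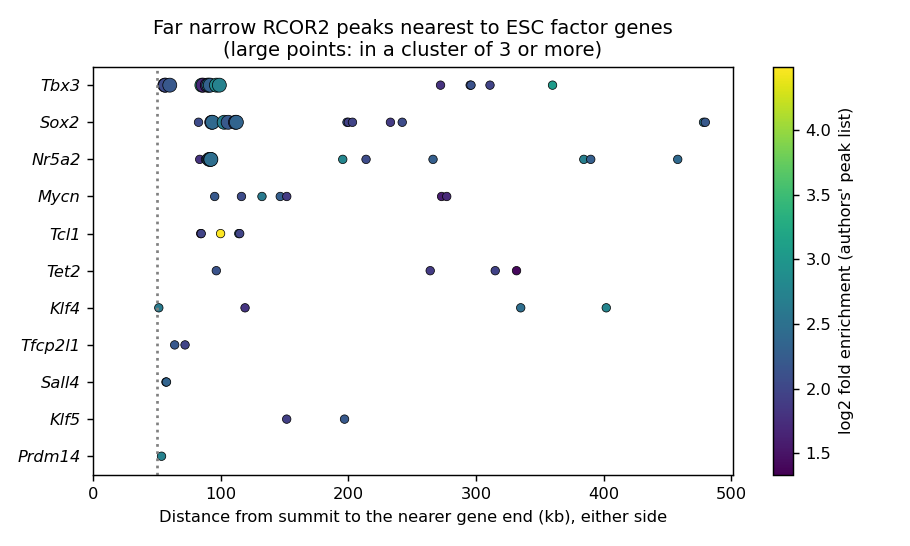
Each point is a far narrow RCOR2 peak nearest to an ESC factor gene (y axis), by distance from its summit to the nearer end of the gene in kb (x axis, either side), coloured by log2 fold enrichment. Large points are in clusters of 3 or more, and the dotted line is the 50 kb limit. Tbx3 and Sox2 have the most peaks, 15 and 14, and 1 Tcl1 peak stands out at 22.5-fold.

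In the KO, 6 of these 11 ESC factors were called higher and 1 lower, and of the whole list of 25, 8 higher and 5 lower. All 25 were tested and 52% were called, beside 19.7% of all genes tested. Their median CPM in WT was 171, beside 30.4 in all protein-coding genes tested. The part of expression level in the share called was not tested. Klf4 was read at 653 and 660 CPM in KO and 312 and 217 in WT, a difference of 1.30 ± 0.16 (log2, SE; adjusted p = 3.44e-09 in edgeR). Tbx3 was read at 587 and 429 CPM in KO and 175 and 223 in WT, a difference of 1.37 ± 0.16 (adjusted p = 2.92e-09 in edgeR). For both genes each KO library was above both WT libraries. Tfcp2l1 rose by 0.87 ± 0.17 (adjusted p = 6.95e-05 in edgeR), and by 0.57 without WT replicate 1. Tet2 rose by 0.86 ± 0.18, Tcl1 by 0.67 ± 0.24 and Klf5 by 0.66 ± 0.18, and Mycn fell by 0.65 on the log2 scale, with an SE of 0.22. The call of Tet2 was lost without WT replicate 1 (0.50, adjusted p = 0.0503 in edgeR), and its difference was 1.31 without WT replicate 2. Klf5 lost its call without WT replicate 2 (0.44), KO replicate 1 (0.67) or KO replicate 2 (0.66). Tcl1 lost it without any 1 library (0.64 to 0.73), and Mycn without each but WT replicate 1 (−0.71 to −0.54). Neither was called in DESeq2 (0.69 and −0.64). Sox2 was read at 866 and 827 CPM in KO and 991 and 1010 in WT, a difference of −0.24 ± 0.14 that was not called (adjusted p = 0.244 in edgeR). Prdm14 at −0.19, Nr5a2 at −0.24 and Sall4 at −0.42 were not called either, though Sall4 was called without KO replicate 1 (−0.80) or WT replicate 1 (−0.61). The list was chosen with results of these cells known, so its count supports no direction.

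The median difference of all tested genes was 0.48 on chromosome 3, 0.92 on chromosome 6, 0.52 on chromosome 8 and −0.49 on chromosome 11, against −0.16 to −0.0025 on the other chromosomes. A change of whole chromosomes between these libraries and the loss of Rcor2 cannot be told apart for genes there. Centred on the chromosome median, Tet2 and Sox2, both on chromosome 3, changed their side of the threshold. Tet2 stood at 0.39 and was not called, and Sox2 at −0.72 with an adjusted p of 0.000189 in edgeR. Mycn, on chromosome 12, stood at −0.61 and lost its call too.

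Over all nearest genes, 222 of the 946 tested were called, or 23.5%, beside 19.7% of all genes tested. Of them 117 were higher (12.4%, beside 10.4% of all genes) and 105 lower (11.1%, beside 9.3%). DESeq2 called 116 of 1026, 11.3% beside 9.12% of all genes, with 77 higher and 39 lower. Without chromosomes 3, 6, 8 and 11, a choice made after seeing the data, 140 of 732 were called, 19.1%, beside 14.1% of 7824 genes. Of the 140, 56 were higher and 84 lower. For this setting and for DESeq2 the split of all genes by direction is not given. These splits therefore show no direction particular to nearest genes. The share did not climb with the number of peaks. It was 24.2% of 310 genes nearest to 1 peak, 21.3% of 183 nearest to 2, 23.9% of 389 nearest to 3 to 9 and 23.4% of 64 nearest to 10 or more. As over all genes tested, fewer nearest genes were called without KO replicate 1 or KO replicate 2. Each fit without 1 library leaves 1 library in its group, so counts of calls from these fits are not given.

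Of the genes nearest to 3 or more far narrow peaks, those with the largest rise in KO were taken by size. Eomes, a T-box factor of mesendoderm and trophoblast with 4 peaks, was read at 17.3 and 22.5 CPM in KO and 1.26 and 3.05 in WT, a difference of 3.30 ± 0.66 (adjusted p = 0.000132 in edgeR). Tfap2a, a factor of surface ectoderm and neural crest with 5 peaks, was read at 19.7 and 23.5 CPM in KO and 0.843 and 5.33 in WT. Its difference was 3.02 ± 0.63, and 4.59 without WT replicate 2. Epha4, an ephrin receptor gene with 3 peaks, the closest at 751901 bp, was read at 147 and 110 CPM in KO and 30.8 and 22.9 in WT, a difference of 2.23 ± 0.24 (adjusted p = 1.78e-10 in edgeR). The sialomucin gene Podxl rose by 2.08 ± 0.39, Gata3, a trophoblast factor, by 1.88 ± 0.40 and Sema5a, an axon guidance gene, by 1.79 ± 0.38. These 6 calls held when each library was left out in turn and under each other alternative run. Podxl lies on chromosome 6, and centred on the chromosome median it stood at 1.17. Grik3, a glutamate receptor gene, was read at 7.59 and 8.37 CPM in KO and 2.11 and 0 in WT, and its call was lost without KO replicate 1, KO replicate 2 or WT replicate 2 (2.66, 2.54 and 1.89), while it stood at 7.04 without WT replicate 1. Neither Grik3 (2.74) nor Dio3 (2.00) was called in DESeq2. Dio3, which inactivates thyroid hormone, is nearest to 6 peaks, 1 of them 23.4-fold enriched at 187513 bp, chr12:110091268-110092108. It was read at 10.3 and 8.89 CPM in KO and 2.53 and 2.29 in WT, a difference of 1.97 ± 0.74 at the threshold (adjusted p = 0.0499 in edgeR), and lost its call without any 1 library (1.84 to 2.08).

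Lef1 was the clearest of the genes that fell. It is nearest to 18 far narrow peaks, 11 of them in the cluster chr3:131007409-131036458, which begins 74076 bp from the gene. It was read at 4.14 and 2.09 CPM in KO and 42.2 and 38.1 in WT, and fell by 3.60 on the log2 scale with an SE of 0.47 (adjusted p = 2.12e-08 in edgeR). Both KO libraries were far below both WT libraries, although the median gene of chromosome 3 was higher in KO. Rpl34, at the other end of that stretch with 23 peaks, was too low to test, at 3.11 and 2.09 CPM in KO and 1.26 and 4.57 in WT, and its count is uncertain because ribosomal protein genes have processed copies. Id4, an inhibitor of basic helix-loop-helix factors, was read at 8.28 and 6.80 CPM in KO and 50.2 and 41.1 in WT, a difference of −2.58 ± 0.38 (adjusted p = 5.61e-07 in edgeR). Plxdc2, a membrane receptor gene, was read at 1.03 and 1.05 CPM in KO and 12.2 and 17.5 in WT, a difference of −3.74 ± 0.78 (adjusted p = 0.000243 in edgeR). The calls of Lef1, Id4 and Plxdc2 held under each alternative run.

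The other protein-coding genes named that fell each lost their call under at least 1 alternative. Kcns3, a potassium channel subunit gene, held 1 count in KO and 27 in WT, 35.2 times as many per depth (exact 95% counting interval 5.81 to 1440), and lost its call without KO replicate 2 or WT replicate 2 (−4.22 and −4.73). Jag1, a NOTCH ligand, was read at 4.49 and 5.23 CPM in KO and 16.4 and 28.2 in WT, and lost its call without WT replicate 2 (−1.76). Trib2, a pseudokinase gene, was read at 5.52 and 3.14 CPM in KO and 18.6 and 20.6 in WT, and lost its call without KO replicate 2 (−1.79). Trim52 lost its call without KO replicate 1 (−3.04) and in DESeq2 (−3.38). Armh4 lost it without KO replicate 1 (−1.72) or WT replicate 1 (−2.0) and in DESeq2 (−2.41). D3Ertd751e lost it without any 1 library (−3.88 to −2.27) and in DESeq2 (−2.85).

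**Figure D5:**
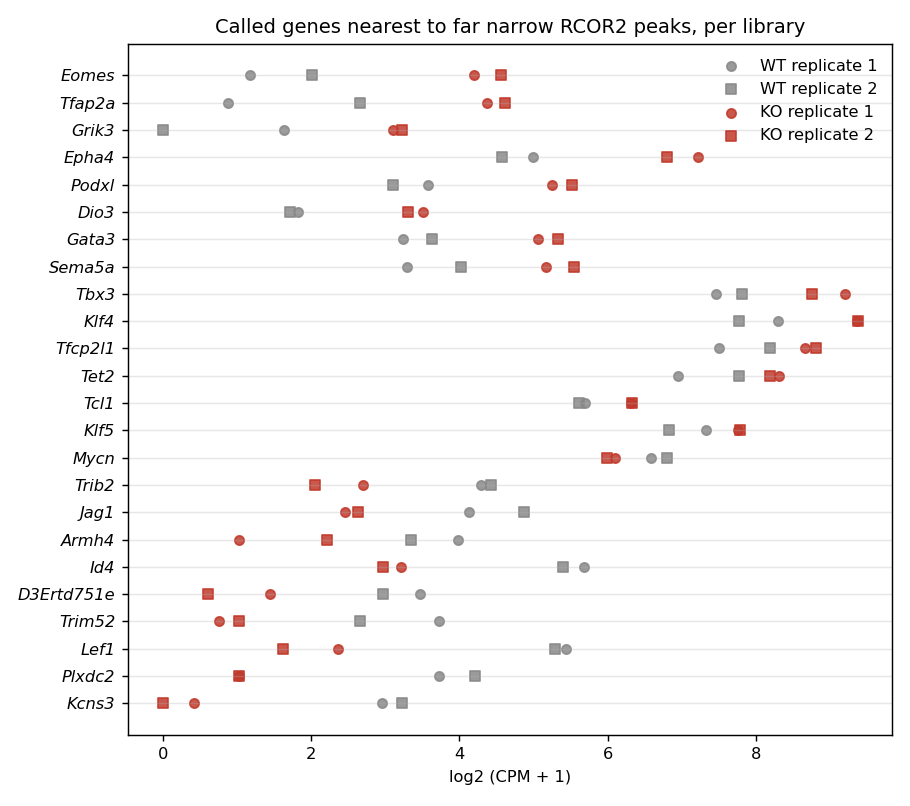
log2 (CPM + 1) in each of the 4 RNA-seq libraries (x axis) for 24 called genes (y axis) that are nearest to 3 or more far narrow peaks and among the largest changes, or are ESC factors. Red points are KO and grey points WT, circles replicate 1 and squares replicate 2. In all 24 genes shown the KO and WT libraries do not overlap, 14 higher and 10 lower in KO, which the choice of called genes makes likely.

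The 10 strongest peaks and the 14 largest clusters had 24 nearest genes, of which 11 were tested and 4 were called (36.4%, beside 19.7% of all genes tested): Lef1, described above, Aasdhppt, Gas8 and Slc16a1. The last 3 each lost the call in DESeq2 and when single libraries were left out. Lef1 and Slc16a1 lie on chromosome 3 and Gas8 on chromosome 8. On chromosomes 3, 6, 8 and 11, 885 of 2346 protein-coding genes tested were called, beside 14% of 7591 on the others. The part of these chromosomes in the share of 36.4% was not tested. Aasdhppt, beside the 32.3-fold peak, was read at 62.8 and 63.8 CPM in KO and 123 and 67.8 in WT, a difference of −0.62 ± 0.23 (adjusted p = 0.0494 in edgeR). It stood at −0.08 without WT replicate 1 and at −0.96 without WT replicate 2, and lost its call without KO replicate 1 (−0.61) or KO replicate 2 (−0.61) too. Immp2l was at −1.01 ± 0.61 and Ppp6c at 0.63 ± 0.49, and neither was called. Gas8, beside the 5S genes, was read at 33.8 and 37.1 CPM in KO and 11.8 and 20.6 in WT, a difference of 1.18 ± 0.37 (adjusted p = 0.0167 in edgeR). Centred on its chromosome it stood at 0.67 and was not called, and it lost its call without WT replicate 1 (0.80), KO replicate 1 (1.24) or KO replicate 2 (1.12). Slc16a1 was at 0.50 ± 0.19 (adjusted p = 0.0497 in edgeR), lost its call without any 1 library (0.47 to 0.54), and stood at 0.02 centred on chromosome 3. Lrig2, Scaf8, Tmem17, Tspan5 and Med13l were not called, between −0.97 and 0.56, though Tspan5 was called when centred on chromosome 3 (−1.12, adjusted p = 0.0499 in edgeR).

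Few of the lncRNAs at far narrow peaks could be measured. Of 645 with a peak inside or within 1 kb, 155 were in the count table and 14 passed the filter. Of the 14, 2 were called (14.3%), beside 23.6% of all 203 lncRNAs tested and 19.7% of all genes tested. Both fell, and 2 genes support no direction. Lncenc1, an lncRNA of naive ESCs with 3 peaks, was read at 76.3 and 90.0 CPM in KO and 153 and 202 in WT, a difference of −1.09 ± 0.19 (adjusted p = 1.97e-05 in edgeR). Platr26, whose start is printed above, was read at 13.5 and 15.7 CPM in KO and 43.0 and 25.9 in WT, a difference of −1.28 ± 0.37 (adjusted p = 0.00944 in edgeR). Lncenc1 kept its call under each alternative run, and Platr26 lost it without WT replicate 1 (−0.82) or KO replicate 1 (−1.16) and in DESeq2 (−1.25). C330004P14Rik was read at 2.42 and 9.42 CPM in KO and 21.5 and 7.62 in WT, so the groups overlapped, and its difference of −1.43 ± 0.61 was called without KO replicate 2 (−2.61) or WT replicate 2 (−1.95) but not in the full fit. Tunar at −1.49 ± 0.65, Platr4 at 0.21 ± 0.42 and Pvt1 at 0.10 ± 0.51 were not called.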

How the data were processed

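The RCOR2 peak list holds, as the authors deposited it, a position, a fold enrichment (a ratio of ChIP over control) and a −log10 q per peak. The submitters' processing notes name Bowtie2 2.3.4.1, MACS2 2.1.1.20160309, STAR 2.5.2b and featureCounts with GRCm38, without steps, and the peak names show a call on merged libraries. ChIP replicates differed in read layout and instrument, per the labels' protocols, and they do not state the control of the call. Positions are 1-based on GRCm38. Gene intervals, starts and windows came from RefSeq GRCm38.p6, in which 24645 of 25131 count rows matched by symbol and 316 by synonym. The 26 rows that carry a date instead of a symbol were tested and not named.

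The RNA-seq values are raw counts per gene, deposited by the authors. The labels do not state strand use, molecular identifiers or the handling of shared reads. The test was that of edgeR 4.0.16 under R 4.3.3 (filterByExpr, TMM, quasi-likelihood test, two-sided, Benjamini-Hochberg over 10241 genes, threshold 0.05), also checked on simulated data. The labels do not call the replicates separate cultures, so the p-values cover only the spread of these samples, possibly technical. Replicates differed beyond sampling noise, with a chi-square per degree of freedom of 4.78 (WT) and 4.22 (KO).

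The nearest gene is that with the nearer interval end, which is not evidence of a target. A summit inside noncoding genes was assigned to the shortest that holds it. Named were the genes nearest to the 10 peaks of highest −log10 q, to the 10 largest clusters (14 with ties) and to the most peaks, the 10 called higher and 10 lower by size among genes with at least 3 peaks, ESC factors with a peak, and up to 5 genes of each other list. Some genes that this rule names are not reported here. Other gene names, lncRNAs and windows were chosen after their values were seen. Members, lists and tests were chosen with earlier results of these data known. The ATAC-seq and control libraries were not used here.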

Additional observations from a re-analysis of the deposited data

How the results depend on the processing

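The number of far narrow peaks was 12643 at a distance of 20 kb, 5153 at 100 kb, 2748 when all RefSeq genes set the distance, 3982 at a −log10 q of at least 5 and 1004 at 10. Density per Mb was 7.24 at a width under 500 bp, 11.0 and 7.24 at distances of 20 and 100 kb, 6.96 for all RefSeq genes, and 4.36 and 1.10 at a −log10 q of 5 and 10. The clustered share was 16.9% and 31.1% at linkages of 5 and 20 kb, 9.96% at a minimum of 5 peaks, 9.89% and 3.39% at a −log10 q of 5 and 10, and 21.6% without chromosome 3, the last chosen after seeing the data. At a width under 500 bp the median fold was 4.23 and the median −log10 q 4.46. Inside noncoding gene intervals alone lay 15.8%, and 55.9% of nearest genes reached 1 CPM in WT.

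Of nearest genes, DESeq2 1.42.0 called 116 (77 higher, 39 lower; 11.3%, beside 9.12% of 11034 genes), and centring on chromosome medians gave 71 higher. Without chromosomes 3, 6, 8 and 11 it was 140, 56 of them higher. The cause was not tested, beyond fewer genes in the last. Leaving out 1 library gave 105 to 175 called, 60 to 107 higher and 45 to 79 lower. With a replicate block 200 were called, 105 higher and 95 lower; same-numbered libraries deviated with a correlation of −0.0532, so they share only a number. Over single named genes, called or not in the full fit, 74 of 526 alternatives ended a call, 7 made one and none reversed a called direction. Only called genes could lose a call, so 74 of 526 understates how often calls were lost. The 4 RNA-seq libraries and the single merged peak call set the precision.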

Other observations

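Some far narrow peaks were highly significant at a low fold. Of 435 with a −log10 q of at least 15, whose median fold was 8.54, 18 had a fold under 5. The lowest, at 2.41-fold with a −log10 q of 19.4, was chr10:130594411-130594953, nearest to the vomeronasal receptor gene Vmn2r87. Others were nearest to Gpd2, a mitochondrial glycerol phosphate dehydrogenase gene (3.35-fold, 26.8), and Cntnap5b (3.72-fold, 18.4, at 2137678 bp), and 2 lay near Vmn1r2 at the start of chromosome 4.

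In 361 bins of 5 Mb with at least 1 Mb of far territory, density ran from 1.68 to 49.0 far narrow peaks per Mb with a median of 7.10. The densest bin, chr12:20000001-25000000, held 93 peaks in 1.90 Mb, and 5 of the 18 bins with 20 or more per Mb were on chromosome 3. Of the 20 bins under 3 per Mb, 5 were on chromosome X. Across bins, density went with that of narrow peaks in the rest of the bin (Spearman's rho 0.396, Pearson's r 0.504, n = 361 bins of 1 peak list that share its call and depth, given as a description).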
